A study of Mus musculus with 18 samples.

Results

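Neutrophils carry a nucleus folded into lobes or a ring, and 10 genes that encode parts of the nuclear envelope, or act on the chromatin folded beneath it, were followed in mouse bone marrow cells along the neutrophil lineage. The 10 genes were taken by symbol (Lbr, Lmna, Lmnb1, Lmnb2, Sun1, Sun2, Emd, Tmpo, Padi4 and Banf1), and all 10 were found among the 34896 genes of the expression table. RNA-seq was available for granulocyte-monocyte progenitors (GMP), pre-neutrophils (preNeu), which still divide, and mature neutrophils (matNeu), with 3 libraries each, all sorted from the bone marrow of wild type C57BL/6 mice aged 6 to 12 weeks. ChIP-seq peak lists covered the chromatin remodeler CHD4 in wild type (WT) GMPs and in GMPs of Gfi1-/- mice, which lack the transcriptional repressor GFI1 in all cells, and the histone mark H3K4me2 in wild type GMP, preNeu and matNeu cells, with 1 library each. The sources used here do not tie the RNA libraries to separate animals, so that p-values measure the spread between libraries only.

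The nuclear lamina is a mesh of lamin filaments under the inner nuclear membrane. B-type lamins (Lmnb1, Lmnb2) stay bound to the membrane, whereas the A-type lamins made from Lmna stiffen the nucleus and are known to be scarce in neutrophils. LBR anchors heterochromatin and B-type lamins to the inner nuclear membrane and also has sterol reductase activity, and its loss is known to leave neutrophil nuclei without lobes, as in the Pelger-Huët anomaly. SUN proteins span the inner membrane and hold nesprins of the outer membrane, forming the LINC complex that ties the nucleus to the cytoskeleton. Emerin (Emd) and LAP2 (Tmpo) carry a LEM domain, which binds BAF (Banf1), a small DNA-binding protein that cross-bridges chromatin and helps the envelope to close after mitosis. PADI4 converts arginines of histones to citrulline and is known for the loosening of chromatin during the release of neutrophil extracellular traps.

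Sequences are shown for the promoters of the 3 members whose transcripts differed most between GMP and matNeu cells, Padi4, Lmnb2 and Banf1. Each is the stretch of 250 bases before the RefSeq start (NCBI, GRCm38.p6, all on the minus strand, written 5′ to 3′ along the gene), with matches to short motifs in capitals. Lmnb2 and Banf1 have 2 RefSeq starts each, of which the more upstream was taken. Padi4 is at chr4:140774204-140774453, Lmnb2 at chr10:80918246-80918495 and Banf1 at chr19:5366877-5367126.
Padi4: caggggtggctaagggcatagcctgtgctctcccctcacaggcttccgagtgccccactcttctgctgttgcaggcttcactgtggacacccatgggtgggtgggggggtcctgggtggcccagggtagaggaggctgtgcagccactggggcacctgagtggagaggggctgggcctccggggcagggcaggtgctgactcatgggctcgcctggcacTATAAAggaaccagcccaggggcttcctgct
Lmnb2: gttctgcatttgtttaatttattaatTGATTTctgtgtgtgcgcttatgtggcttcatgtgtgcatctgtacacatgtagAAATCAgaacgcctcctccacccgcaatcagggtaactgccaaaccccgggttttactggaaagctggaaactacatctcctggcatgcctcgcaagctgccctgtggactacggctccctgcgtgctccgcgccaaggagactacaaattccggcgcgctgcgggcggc
Banf1: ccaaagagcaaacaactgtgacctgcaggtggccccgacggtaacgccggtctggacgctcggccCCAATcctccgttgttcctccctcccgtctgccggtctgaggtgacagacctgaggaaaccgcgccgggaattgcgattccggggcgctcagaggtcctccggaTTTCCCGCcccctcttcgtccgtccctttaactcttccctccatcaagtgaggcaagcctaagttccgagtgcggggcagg
The motifs searched on both strands were CCAAT, the E2F sites TTTCCCGC and TTTGGCGC, and TTTGAA of cell cycle promoters. The others were AAATCA, a part of the GFI1 site, GAGGAAGT for PU.1, TTGCNNAA for C/EBP factors and TATAAA. The last was added after the Padi4 sequence had been seen. The Padi4 stretch held a single match, a TATAAA that begins 31 bases before the start, and 12.4% of all 32851 promoter stretches held this motif. The Banf1 stretch held CCAAT (33.8% of all promoters) 185 bases before the start and TTTCCCGC (0.895%) 81 bases before it. The Lmnb2 stretch held 2 copies of AAATCA (12.4%), at 224 and 170 bases before the start. No 2 matches overlapped in these stretches.

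In GENCODE M21 (GRCm38), the genes of the lamina and its receptor are Lbr (ENSMUSG00000004880) at chr1:181815335-181843046 on the minus strand, Lmna (ENSMUSG00000028063) at chr3:88480147-88509956 on the minus strand and Lmnb2 (ENSMUSG00000062075) at chr10:80901203-80918245 on the minus strand. The SUN genes are Sun1 (ENSMUSG00000036817) at chr5:139200637-139249840 on the plus strand and Sun2 (ENSMUSG00000042524) at chr15:79724070-79742536 on the minus strand. The LEM domain genes are Emd (ENSMUSG00000001964) at chrX:74254687-74261548 on the plus strand and Tmpo (ENSMUSG00000019961) at chr10:91147571-91181315 on the minus strand, their partner is Banf1 (ENSMUSG00000024844) at chr19:5364638-5367168 on the minus strand, and the deiminase gene is Padi4 (ENSMUSG00000025330) at chr4:140745865-140774236 on the minus strand. Lmnb1 (ENSMUSG00000024590) is on the plus strand of another chromosome, and its peaks are given by their distance from its start.

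The libraries had the markers of the cell types in their titles. Cd34 was between 425 and 498 TPM (the unit of the expression table, a share of a library's transcripts that is corrected for transcript length and can be compared between genes) in GMPs and at or below 3.27 TPM in the other 6 libraries. Ngp, a granule gene of pre-neutrophils, was between 57802 and 82697 TPM in preNeu cells, and Cxcr2, a chemokine receptor of mature neutrophils, between 3027 and 3976 TPM in matNeu cells. A tissue tag in the labels names another cell type than the title for 13 of the 18 samples, among them all 9 RNA libraries, and the titles were followed. The 6 monocyte markers summed to between 1761 and 2123 TPM in GMPs, with 37.5 to 64.3 TPM in preNeu and 265 to 379.9 TPM in matNeu libraries, where Csf1r held 253 to 349.6 TPM. The sum of the 5 eosinophil and basophil markers was 1136 to 1413, 94.4 to 152 and 1.63 to 6.79 TPM in the same order of cell types, and the 4 T cell and the 4 erythroid markers each stayed at or below 14.3 TPM in sum. Cd3e, Trbc2, Hbb-bt and Hba-a1 were at 0 in all GMP libraries, Trbc2 in all preNeu libraries and the eosinophil marker Epx in all matNeu libraries. Other markers of these lists were detected. The T cell marker Cd3d was between 2.34 and 3.29 TPM in GMPs and 6.57 to 14.1 TPM in matNeu cells, and the erythroid marker Klf1 between 3.72 and 6.84 TPM in GMPs. The part of such cells in the values below was not tested. The 10 most abundant genes of a library took 9.15% to 9.78% of its TPM for GMPs. For preNeu and matNeu cells their share was 24.1% to 28.3% and 12.7% to 15.9%. TPM keeps no read depth, so that the depth behind each value is unknown.

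Expression was compared on log2(TPM + 1) for the 13061 genes that reached 1 TPM in 3 or more libraries. Calls were made with limma at a Benjamini-Hochberg adjusted p of 0.05 over all of these genes. The pseudocount of 1 understates changes of genes with low TPM. Of these genes, 14.7% were called higher and 44.3% lower in preNeu than in GMP cells, 22.9% higher and 39.8% lower in matNeu than in preNeu cells, and 22.8% higher and 54.1% lower in matNeu than in GMP cells. The median log2 change of all genes was −0.52, −0.32 and −0.92, and beside the changes as deposited the text gives, where it matters, the change above this median. Higher genes made up 25.0%, 36.5% and 29.6% of the calls of the 3 comparisons. With TPM rescaled by median-of-ratios factors these shares were 45.1%, 47.2% and 45.2%, and with quantile normalization 48.1%, 50.3% and 50.2%. The 3 comparisons share libraries and are not independent. Of the 10 members, 9 passed the filter and Lmna did not.

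**Figure D1:**
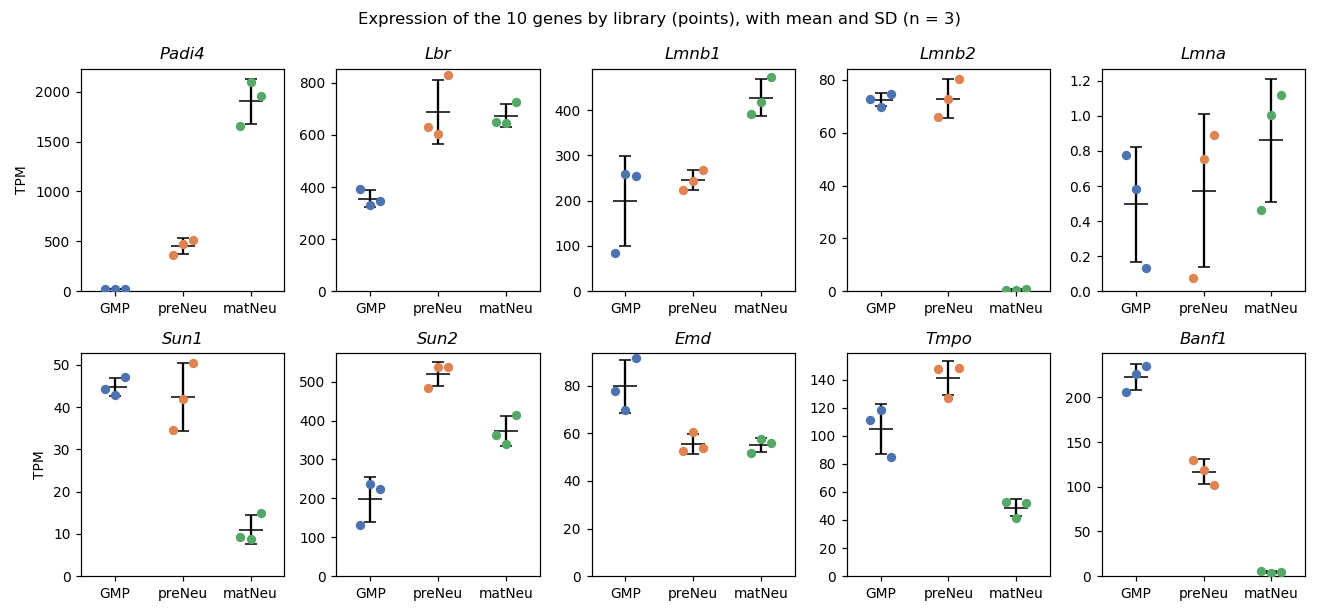
TPM of the 10 genes in each of the 9 libraries, by cell type on the horizontal axis, with points for libraries, the horizontal mark for the mean and bars for the SD (n = 3), each panel with its own vertical axis from 0. Padi4 climbed from at most 23.7 TPM in GMPs to at least 1657 TPM in matNeu cells, whereas Lmnb2 and Banf1 were at or below 5.82 TPM in every matNeu library.

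Padi4 showed the steepest rise of the 9 tested members. It was at 23.7, 20.98 and 20.8 TPM in the GMP libraries, 362, 476 and 513 TPM in preNeu and 1657, 2093 and 1959 TPM in matNeu cells, with means of 21.8 ± 1.62, 450.3 ± 79.0 and 1903 ± 223 TPM (SD, n = 3). The 3 cell types did not overlap, and the lowest matNeu library lay above the highest preNeu library. In such bulk samples, fewer cells with a transcript and less of it per cell cannot be told apart. The log2 change was 4.29 (SE 0.15, limma adjusted p = 8.22e-09) from GMP to preNeu cells and a further 2.09 (SE 0.15, adjusted p = 5.13e-07) from preNeu to matNeu cells. Mean TPM was 87.2-fold higher in matNeu than in GMP cells, and 99.2% of the genes tested had a lower log2 change in that comparison. Of the 4 other peptidylarginine deiminases only Padi2 passed the filter on low values, and it went the other way. Padi2 was between 16.3 and 21.1 TPM in GMPs and fell to 1.06 to 1.90 TPM in preNeu cells (log2 change −3.02, SE 0.26, adjusted p = 5.07e-06).

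Lbr rose in the early step and had no call in the late step. It was at 391, 330 and 346 TPM in GMPs, 631, 603 and 830 TPM in preNeu and 651, 646 and 725 TPM in matNeu cells, with means of 356 ± 31.8, 688 ± 123 and 674 ± 44.6 TPM (SD, n = 3). Every preNeu and matNeu library lay above every GMP library, and the preNeu and matNeu libraries overlapped. The log2 change was 0.94 (SE 0.13, limma adjusted p = 0.000164) from GMP to preNeu cells and −0.02 (SE 0.13, adjusted p = 0.927) from preNeu to matNeu cells. The later step depended on the scaling, with 0.35 (adjusted p = 0.0301) under median-of-ratios factors and −0.55 (adjusted p = 0.00464) under quantile normalization. None of the 3 sterol reductase genes listed beside Lbr was called higher in any comparison. Dhcr7, which makes the last step of cholesterol synthesis, was between 44.3 and 50.8 TPM in GMPs and 3.93 to 9.98 TPM in matNeu cells (log2 change −2.89, SE 0.34, adjusted p = 1.44e-05), and all 3 were called lower in matNeu than in GMP cells.

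The lamin genes took different courses, and mature neutrophils were left with Lmnb1. Lmnb1 was at 85.1, 259 and 255 TPM in GMPs, 225, 244 and 268 TPM in preNeu and 391, 418 and 473 TPM in matNeu cells, with means of 199.7 ± 99.2, 246 ± 22.0 and 427 ± 41.3 TPM (SD, n = 3). All matNeu libraries were above all others, and the library GMP replicate 1 stood far below the other 2 of its cell type. From GMP to preNeu cells no change was called (log2 change 0.46, SE 0.35, limma adjusted p = 0.279), and without GMP replicate 1 the value was −0.07 (adjusted p = 0.685). With median-of-ratios factors it was 0.97 (adjusted p = 0.0383). From preNeu to matNeu cells the log2 change was 0.80 (SE 0.35, adjusted p = 0.0668), and without GMP replicate 1, which enters the shared estimate of the spread, it was 0.80 (SE 0.12, adjusted p = 0.000214). Against GMPs, matNeu cells were higher by 1.26 (SE 0.35, adjusted p = 0.00655), or by 0.73 (adjusted p = 0.000586) without GMP replicate 1.

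Lmnb2 had no call in the early step and was nearly lost in the late step. It was at 72.9, 69.9 and 74.7 TPM in GMPs and 65.8, 72.6 and 80.3 TPM in preNeu cells, which overlapped, and at 0.402, 0.604 and 0.679 TPM in matNeu cells, with means of 72.5 ± 2.43, 72.9 ± 7.26 and 0.562 ± 0.143 TPM (SD, n = 3). The log2 change was 0.00 (SE 0.17, limma adjusted p = 0.991) in the early step and −5.56 (SE 0.17, adjusted p = 1.56e-09) in the late step, and −6.80 in the late step with a pseudocount of 0.1. The early step was called higher with median-of-ratios factors (0.51, adjusted p = 0.0216) and with quantile normalization (0.49, adjusted p = 0.0256). Mean TPM was 130-fold lower in matNeu than in preNeu cells, and 0.796% of the genes tested had a lower log2 change. Lmna was listed between 0.0742 and 1.12 TPM in all 9 libraries, with overlapping cell types. In a fit with no filter its log2 change from GMP to matNeu cells was 0.32 (SE 0.28, adjusted p = 0.369).

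Within a library, Lmnb1 made up 53.6%, 78.6% and 77.3% of the summed TPM of the 3 lamin genes in GMPs, 77.3%, 76.9% and 76.8% in preNeu and 99.8%, 99.6% and 99.6% in matNeu cells. Such a share does not depend on the scaling of a library. GMP and preNeu libraries overlapped and the matNeu libraries lay above both (exact permutation test, two-sided p = 0.1, the smallest that 3 against 3 libraries allow). Such tests were run on 7 ratios in 3 comparisons, and none could pass 0.05, before or after adjustment. Summed lamin TPM was 159, 329 and 330 in GMPs and 392, 420 and 474 in matNeu cells, and the matNeu sums lay above the sums of all other libraries.

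**Figure D2:**
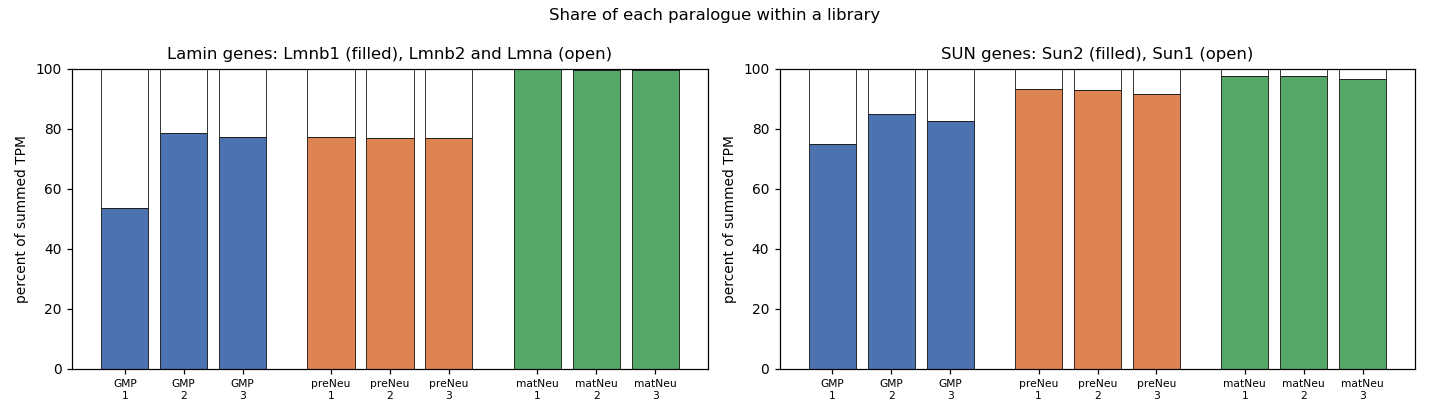
Share of summed TPM in each library, in percent, taken by Lmnb1 among the lamin genes (left, the open part is Lmnb2 and Lmna) and by Sun2 among the SUN genes (right, the open part is Sun1). In the matNeu libraries Lmnb1 took at least 99.6% and Sun2 at least 96.5%.

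Of 5 genes for enzymes that process lamin tails, 3 were called lower and 0 higher in matNeu than in GMP cells, beside 54.1% and 22.8% of all genes tested. Zmpste24, the protease that trims prelamin A, was between 57.5 and 59.6 TPM in GMPs, 252 to 293 TPM in preNeu cells and 9.40 to 12.2 TPM in matNeu cells, a rise of 2.18 (SE 0.14, limma adjusted p = 6.24e-07) followed by a log2 change of −4.52 (SE 0.14, adjusted p = 1.53e-09). Rce1, which clips the last residues of prenylated lamins, was at 73.2 to 99.4 TPM in GMPs and 8.18 to 8.38 TPM in matNeu cells (log2 change −3.19, SE 0.20, adjusted p = 1.01e-07).

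Between GMP and matNeu cells the SUN genes moved in opposite directions, with a log2 change of 0.95 for Sun2 (SE 0.20, limma adjusted p = 0.00112) and −1.96 for Sun1 (SE 0.22, adjusted p = 9.75e-06). Sun2 was at 132, 238 and 224 TPM in GMPs, 484, 537 and 539 TPM in preNeu and 363, 340 and 415 TPM in matNeu cells, with means of 198 ± 57.8, 520.1 ± 31.4 and 373 ± 38.6 TPM (SD, n = 3). No library of one cell type overlapped another cell type, with preNeu cells highest, and GMP replicate 1 was again the lowest GMP library. The log2 change was 1.44 (SE 0.20, limma adjusted p = 0.000127) in the early step. In the late step it was −0.48 (SE 0.20, adjusted p = 0.0543), and the same size with an adjusted p of 0.00401 without GMP replicate 1. Sun1 was at 44.3, 42.9 and 47.2 TPM in GMPs, 34.5, 41.9 and 50.6 TPM in preNeu and 9.30, 8.82 and 15.0 TPM in matNeu cells, with means of 44.8 ± 2.21, 42.3 ± 8.02 and 11.03 ± 3.42 TPM (SD, n = 3). Its GMP and preNeu libraries overlapped and every matNeu library was lower. The log2 change of Sun1 in the early step was −0.10 (SE 0.22, adjusted p = 0.733), or 0.41 and 0.45 with median-of-ratios factors and quantile normalization, and it was −1.87 (SE 0.22, adjusted p = 2.47e-05) in the late step. Sun2 accounted for 74.8% to 84.7% of SUN TPM in GMPs, 91.4% to 93.3% in preNeu cells and 96.5% to 97.5% in matNeu cells (exact permutation test, two-sided p = 0.1 for each pair of cell types).

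Among genes for partners of the SUN proteins, transcripts of Syne1 and Syne2 peaked at the preNeu stage. Syne1, which encodes nesprin-1, was between 7.98 and 9.80 TPM in GMPs, 174 to 230 TPM in preNeu cells and 45.5 to 50.0 TPM in matNeu cells, and both steps were called (log2 change 4.35, SE 0.15, limma adjusted p = 8.27e-09, then −2.07, SE 0.15, adjusted p = 6.42e-07). Syne2, another nesprin gene, was between 1.83 and 6.11 TPM in GMPs, 69.4 to 87.4 TPM in preNeu cells and 9.34 to 11.4 TPM in matNeu cells. Its log2 change was 4.07 (SE 0.30, limma adjusted p = 2.18e-06), then −2.84 (SE 0.30, adjusted p = 1.23e-05). Of the 6 nesprin and torsin genes, 2 were called higher and 3 lower in preNeu than in GMP cells, beside 14.7% and 44.3% of all genes tested. In matNeu cells 5 were called lower than in preNeu cells, beside 39.8% of all genes tested. Tor1a, an ATPase of the perinuclear space, was at 219 to 230 TPM in GMPs and 88.1 to 110 TPM in matNeu cells (log2 change −1.16, SE 0.13, adjusted p = 1.04e-05). Its relative Tor1b fell by 1.89 on the log2 scale (SE 0.15, adjusted p = 5.96e-07) between the same cell types.

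Of Emd, Tmpo and Banf1, Banf1 fell most between GMP and matNeu cells. Banf1 was at 206, 227 and 235 TPM in GMPs, 130, 119 and 102 TPM in preNeu and 5.82, 3.94 and 4.93 TPM in matNeu cells, with means of 223 ± 14.7, 117 ± 14.0 and 4.90 ± 0.94 TPM (SD, n = 3). The 3 cell types did not overlap. The log2 change was −0.93 (SE 0.16, limma adjusted p = 0.000575) in the early step, which is −0.41 beside the median of all genes and was not called with median-of-ratios factors (−0.41, adjusted p = 0.0623). In the late step it was −4.33 (SE 0.16, adjusted p = 5.02e-09), a mean TPM 23.9-fold lower.

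Tmpo was at 111, 118 and 84.7 TPM in GMPs, 148, 127 and 148 TPM in preNeu and 52.6, 41.7 and 51.8 TPM in matNeu cells, with means of 105 ± 17.7, 141 ± 12.1 and 48.7 ± 6.06 TPM (SD, n = 3). The cell types did not overlap, and the preNeu libraries were highest. The early log2 change of 0.44 (SE 0.16, limma adjusted p = 0.0370) lost its call without GMP replicate 3 (0.29, adjusted p = 0.143), preNeu replicate 1 (0.40, adjusted p = 0.101) or preNeu replicate 3 (0.40, adjusted p = 0.0971). The late change was −1.52 (SE 0.16, adjusted p = 1.06e-05). Against GMPs, matNeu cells were lower by 1.08 on the log2 scale (adjusted p = 9.05e-05), within 0.16 of the median of all genes, and the call was lost with median-of-ratios factors (−0.21, adjusted p = 0.245).

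Emd was at 78.0, 69.7 and 91.6 TPM in GMPs, 52.7, 60.5 and 53.7 TPM in preNeu and 51.7, 57.6 and 55.8 TPM in matNeu cells, with means of 79.8 ± 11.1, 55.6 ± 4.26 and 55.04 ± 3.01 TPM (SD, n = 3). Every GMP library was above the other 6, which overlapped between preNeu and matNeu cells. The early log2 change was −0.51 (SE 0.14, limma adjusted p = 0.0102), 0.01 from the median of all genes, and it was 0.00 with median-of-ratios factors. From GMP to matNeu cells the deposited values gave −0.52 (adjusted p = 0.00602) and median-of-ratios factors 0.35 (adjusted p = 0.0415), so that the direction for Emd depended on the scaling. At the level of transcripts, the balance moved away from Banf1, and the proteins were not measured. The summed TPM of Emd and Tmpo per TPM of Banf1 was 0.917, 0.829 and 0.750 in GMPs, 1.54, 1.57 and 1.97 in preNeu and 17.9, 25.2 and 21.8 in matNeu cells (exact permutation test, two-sided p = 0.1 for each pair).

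A further list held 9 other genes for proteins of the inner nuclear membrane or with a LEM domain. Of these, 2 were called higher and 4 lower in matNeu than in GMP cells, near the 22.8% and 54.1% of all genes tested. Tmem43, which encodes the membrane protein LUMA, was between 150 and 158 TPM in GMPs and 232 to 244 TPM in matNeu cells (log2 change 0.63, SE 0.10, limma adjusted p = 0.000135). Ankle1, a LEM domain endonuclease, was at 58.5 to 70.5 TPM in GMPs, 61.0 to 96.1 TPM in preNeu cells and 0 to 0.979 TPM in matNeu cells (log2 change −5.74 from preNeu to matNeu cells, SE 0.28, adjusted p = 2.90e-08).

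Counted over the 9 tested members, 4 were called higher (Lbr, Sun2, Tmpo and Padi4) and 2 lower (Emd and Banf1) in preNeu than in GMP cells, beside 14.7% and 44.3% of all genes tested. Between matNeu and preNeu cells 1 was higher (Padi4) and 4 lower (Lmnb2, Sun1, Tmpo and Banf1), beside 22.9% and 39.8%. Between matNeu and GMP cells 4 were higher (Lbr, Lmnb1, Sun2 and Padi4) and 5 lower, beside 22.8% and 54.1%, so that the share of members called lower was near that of all genes. The median log2 change of the members was 0.44, −0.48 and −0.52, beside −0.52, −0.32 and −0.92 over all genes. With median-of-ratios factors the counts were 6 higher and 0 lower, 3 and 4, and 5 and 3. Under that scaling 3027 of all 13061 genes were called higher and 3679 lower in preNeu than in GMP cells. Higher genes then made up 45.1%, 47.2% and 45.2% of all calls in the same order of comparisons.

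**Figure D3:**
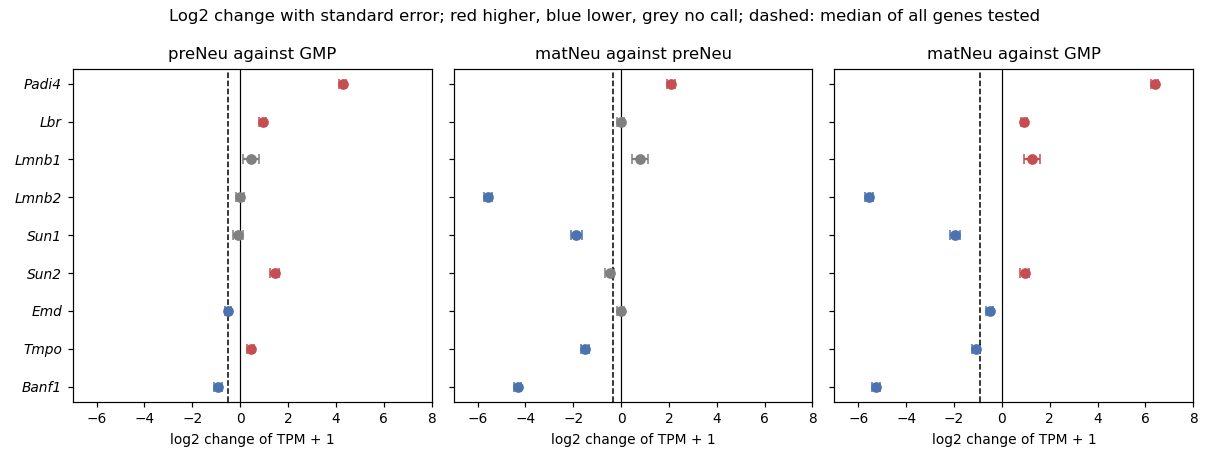
Log2 change of TPM + 1 with its standard error for the 9 tested genes in each comparison, in red where called higher, blue where called lower and grey where not called. The dashed line is the median of all 13061 genes (−0.52, −0.32 and −0.92), and Padi4, Lmnb2 and Banf1 lie farthest from it in matNeu against GMP.

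Genes of the nuclear pores, the channels through the same envelope, fell as a group. Of 29 pore genes, 22 were called lower and 0 higher in preNeu than in GMP cells, 26 lower and 0 higher in matNeu than in preNeu cells, and 29 of 29 lower in matNeu than in GMP cells, with median log2 changes of −0.98, −2.52 and −3.42 beside −0.52, −0.32 and −0.92 over all genes. Of all genes tested, 44.3%, 39.8% and 54.1% were called lower in the same comparisons. The calls of such lists were not made again under the other scalings. Their summed TPM was 3129 to 3165 in GMPs, 1462 to 1743 in preNeu cells and 299 to 357 in matNeu cells. Nup210, a membrane-anchored pore protein, was between 240 and 257 TPM in GMPs, 39.05 to 64.04 TPM in preNeu cells and 1.18 to 2.502 TPM in matNeu cells (log2 change −6.53, SE 0.22, limma adjusted p = 1.25e-09). Sec13, shared by the pore and the coat of secretory vesicles, was the most abundant of the list and fell from 313 to 396 TPM in GMPs to 62.5 to 71.5 TPM in matNeu cells (log2 change −2.36, SE 0.14, adjusted p = 5.75e-08).

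The end of cell division ran alongside the late losses. Mki67 was between 64.3 and 73.2 TPM in GMPs, 186 to 238 TPM in preNeu cells and 3.30 to 5.56 TPM in matNeu cells. Of 18 proliferation genes, 9 were called higher and 5 lower in preNeu than in GMP cells, beside 14.7% and 44.3% of all genes tested. In matNeu cells 18 of 18 were called lower than in preNeu cells, beside 39.8% of all genes tested. Rrm2, a subunit of ribonucleotide reductase, was the most abundant of them and went from 779 to 866 TPM in preNeu to 0.266 to 4.65 TPM in matNeu cells, and Mcm3, part of the replicative helicase, from 480 to 604 TPM in GMPs to 0 to 1.26 TPM in matNeu cells. The part of the cell cycle in the values of Lmnb2, Banf1, Tmpo and Sun1 was not tested.

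**Figure D4:**
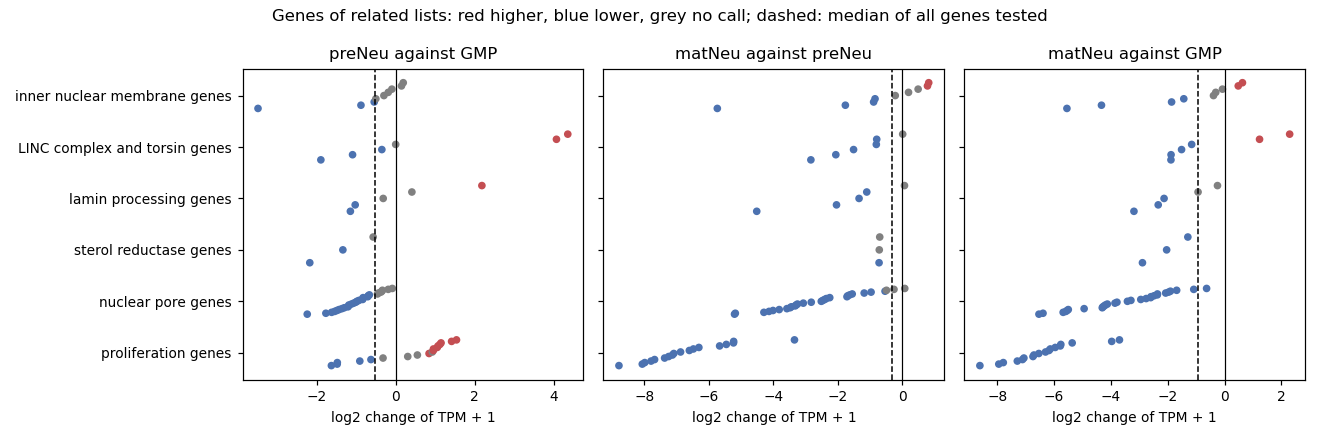
Log2 change of TPM + 1 of each tested gene of 6 related lists, by comparison, in red where called higher, blue where called lower and grey where not called, with the median of all genes dashed. All 29 nuclear pore genes lie below 0 in matNeu against GMP.

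For each tested member, genes were taken from the 3 with the highest Pearson correlation of log2(TPM + 1) over the 9 libraries, which share cell types and libraries with it. Padi4 was closest to Pygl, a glycogen phosphorylase (r = 0.998), Cd33, a sialic acid receptor (r = 0.998), and Mmp9, a gelatinase of neutrophil granules (r = 0.998). Lmnb2 was closest to Gatm, Espl1, which encodes separase, and Bora, an activator of Aurora kinase (each r = 0.999). Banf1 was closest to Ptma (r = 0.999), Ppia (r = 0.999) and Aunip (r = 0.998). Lbr was closest to Acap2 (r = 0.988), the kinase gene Rock1 (r = 0.981) and Hipk1 (r = 0.976), and Lmnb1 to Bloc1s3 (r = 0.988), Brap (r = 0.972) and Pacsin2 (r = 0.964). Sun1 was closest to Xbp1 (r = 0.997), C2cd2 (r = 0.994) and N4bp2 (r = 0.993), and Sun2 to Lrrfip2 (r = 0.982) and Arhgap27 (r = 0.973). Emd was closest to Vps72 (r = 0.979), Rpsa-ps9 (r = 0.977) and Kctd17 (r = 0.973). Of these, Rpsa-ps9 and Kctd17 were low, with mean TPM of 1.60 and 2.91 in GMPs and 0 in matNeu cells. Tmpo was closest to Hspa4l (r = 0.987), Actn4 (r = 0.986) and Lmf2 (r = 0.985). The library GMP replicate 1, which was low for Lmnb1, enters all of these correlations. An r above 0.95 was shared with 1706 genes by Banf1, 1157 by Lmnb2, 883 by Sun1 and 390 by Padi4, and with only 6 genes by Lmnb1.

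CHD4, the ATPase of the NuRD complex, which joins nucleosome remodeling with histone deacetylation, was mapped in GMPs with 1 library per genotype, so no test was possible. Peaks were counted from 10 kb before to 10 kb after each gene in GENCODE M21 (GRCm38). In WT GMPs, 7 peaks lay near 3 of the 10 members, 2 at Lbr, 4 at Lmnb1 and 1 at Tmpo, beside 32.4% of all 21853 protein-coding genes with a peak in the same window. None of the 10 members had a peak in Gfi1-/- GMPs, beside 10.2% of all protein-coding genes. The Gfi1-/- list held 7316 peaks and the WT list 35790, of which 18.5% overlapped a Gfi1-/- peak by at least 1 bp. The loss at the members cannot be told apart from this shorter list. The paper counts far fewer CHD4 peaks in WT GMPs, and reports CHD4 as largely kept without GFI1 at sites bound by CHD4 alone. The 18.5% is a share of the longer WT list used here and is not set against the paper's counts.

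The most enriched of the 7 peaks was at Tmpo, chr10:91179888-91180522, with a fold enrichment of 20.2 and a −log10 q of 67.7, above 89.1% of the WT peaks. It lay inside the annotated gene, but 8306 bp upstream of the nearest start of a protein-coding transcript. The Lbr peaks were at chr1:181842550-181842773 (fold 3.995, −log10 q of 4.53), in an intron 86 bp from the nearest annotated start, and at chr1:181845728-181846126 (fold 6.52, −log10 q of 10.7), 2682 bp upstream. The fold of the former was above that of 2.30% of the WT peaks. The sequences of 201 bp around the summits at Lbr and Tmpo are shown as the CHD4 sites of these members, each centred on its peak's summit, on the plus strand of GRCm38, with matches to the motifs above in capitals. They are at chr1:181842516-181842716, chr1:181845920-181846120 and chr10:91180060-91180260.
Lbr near the start: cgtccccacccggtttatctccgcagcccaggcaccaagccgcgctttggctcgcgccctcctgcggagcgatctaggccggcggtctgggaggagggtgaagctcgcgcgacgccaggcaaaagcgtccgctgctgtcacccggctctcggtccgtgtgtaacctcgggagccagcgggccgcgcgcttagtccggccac
Lbr upstream: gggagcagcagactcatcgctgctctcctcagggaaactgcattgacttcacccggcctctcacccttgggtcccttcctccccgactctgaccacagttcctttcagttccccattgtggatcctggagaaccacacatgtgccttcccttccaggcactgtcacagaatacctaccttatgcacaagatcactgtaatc
Tmpo: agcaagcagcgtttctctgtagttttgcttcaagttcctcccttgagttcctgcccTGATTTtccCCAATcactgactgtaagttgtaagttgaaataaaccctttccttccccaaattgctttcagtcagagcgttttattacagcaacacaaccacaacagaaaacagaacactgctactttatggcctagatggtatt
Neither Lbr window held any of the motifs. The Tmpo window held AAATCA on the minus strand (12.1% of 35728 CHD4 summit windows) and CCAAT (20.0%), which did not overlap, and 105 of its 201 bases are marked as repeats in the reference, against 0 in both Lbr windows. The GC content of the windows was 70.6%, 54.2% and 41.8%.

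The 4 Lmnb1 peaks had folds of 4.92 to 6.59. They lay 8472 and 6633 bp upstream of its start and 1150 and 14878 bp into its introns.

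H3K4me2, a mark of promoters and enhancers that are active or poised, was mapped with 1 library per cell type, and peak lengths were compared without a test. Its lists held 37643 peaks over 49.8 Mb in GMPs, 49578 over 97.9 Mb in preNeu cells and 44094 over 80.4 Mb in matNeu cells, with a median fold enrichment of 2.89, 4.55 and 3.78, so that the GMP list was shorter and weaker as a whole. A start of a protein-coding transcript lay under a peak at 9 of the 10 members in GMPs and at 10 of 10 in preNeu and matNeu cells, beside 55.2%, 59.1% and 57% of all protein-coding genes. Among peaks with a −log10 q of at least 5, only 5 members had a covered start in GMPs, and the length under GMP peaks near the members was 28.9 kb in place of 59.0 kb. Emd was the member without a covered start in the full GMP list, where the nearest peak began 307 bp away. The length under peaks grew from GMP to preNeu cells at 9 of 10 members, with a median gain of 5.59 kb beside 0.756 kb over all protein-coding genes, and shrank from preNeu to matNeu cells at 10 of 10, with a median change of −1.59 kb beside −0.421 kb. Of all protein-coding genes 63.4% gained length in the former step and 63.2% lost length in the latter. Genes that are not expressed are among all protein-coding genes, and expressed genes alone were not taken as a background. Length under peaks is not the level of the mark. From normalized coverage at promoters and enhancers bound by GFI1, CHD4 or both, the paper reports lower H3K4me2 in preNeu and matNeu than in GMPs.

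Padi4 gained most. Peaks covered 3.41 kb of its window in GMPs, 16.7 kb in preNeu and 15.8 kb in matNeu cells, and 3.01% of all protein-coding genes gained as much from GMP to preNeu cells. In GMPs a peak of 295 bp covered its start (fold 2.99) beside separate ones of 2935 bp in an intron and 183 bp farther along the gene. None of these GMP peaks reached a −log10 q of 5, the strongest being 4.02. In preNeu cells a single peak of 9563 bp, chr4:140765782-140775344 (fold 11.9), ran over both, and one of 9451 bp (fold 10.2) in matNeu cells. The promoter sequence shown for Padi4 lies inside these broad peaks. Upstream, where the GMP list held no peak in the window, preNeu cells had a peak of 14464 bp that began 2834 bp before the start and reached the neighbouring gene Padi3.

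Sun2 was next, with 6.13 kb in GMPs, 17.2 kb in preNeu and 16.2 kb in matNeu cells, and 4.22% of genes gained as much in the early step. The peak over its start was 4956 bp long in GMPs, 13996 bp in preNeu and 13064 bp in matNeu cells, and extended into the gene body. Lmnb1 had 9.99, 18.7 and 15.9 kb. Within its introns and an exon, peaks that began 25032 and 27232 bp after the start were present in preNeu cells (1523 and 2847 bp), and a single peak of 6697 bp in matNeu cells, and the GMP list held none there. Lbr had 7.29, 11.5 and 10.99 kb, and the peak over its start grew from 5624 to 9600 bp in preNeu and was 7738 bp in matNeu cells.

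Lmnb2, Sun1, Tmpo and Banf1, the members called lower in matNeu than in preNeu cells, had a start under a peak in all 3 cell types. Lmnb2 had 4.45, 9.81 and 6.22 kb, and the peak over its start was 2220 bp in GMPs, 5282 bp in preNeu and 1616 bp in matNeu cells, where TPM was below 1. Banf1 was the member without a gain, at 3.799, 3.28 and 2.88 kb in a single peak that also overlaps the neighbouring gene Eif1ad, so that their marks cannot be told apart. Sun1 had 6.64, 12.5 and 9.06 kb and Tmpo 11.3, 15.1 and 11.3 kb. Of the Sun1 length, 2254, 5186 and 2453 bp were a downstream peak that overlaps the neighbouring gene Get4. Of the Lmnb2 length, 1031, 2152 and 1901 bp were a peak that overlaps the neighbouring gene Timm13. Emd had 3.72, 11.4 and 10.1 kb, of which the longest peak lay over the neighbouring gene Flna. Lmna, at most 1.12 TPM, still had a peak over a start in every cell type, with 2.28, 4.09 and 2.23 kb in its window. The H3K4me2 peaks of GMPs overlapped 6 of the 7 CHD4 peaks near the members, as did those of preNeu cells, and those of matNeu cells overlapped 4, beside 37.8%, 59.5% and 52.5% of all WT CHD4 peaks.

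**Figure D5:**
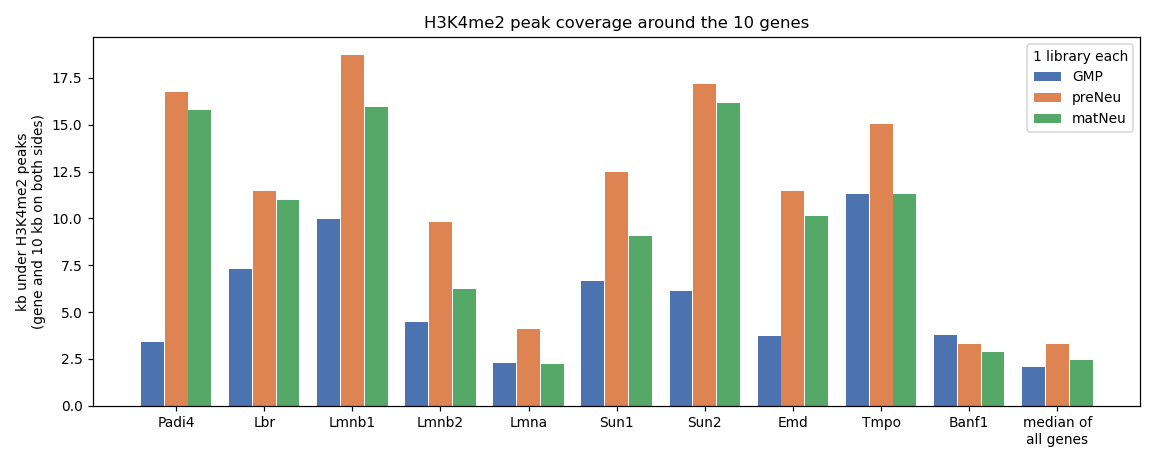
Length under H3K4me2 peaks, in kb, from 10 kb before to 10 kb after each gene, with 1 bar per cell type and 1 library each, and the median of all protein-coding genes at the right. Padi4 and Sun2 have the largest gains from GMP to preNeu cells, 13.3 and 11.1 kb, and Banf1 does not gain.

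The ATAC-seq lists titled preNeu and matNeu were the same in position, fold and q for all 16307 peaks and were read as 1 list whose stage is not settled. All 10 members had an ATAC peak within 10 kb, beside 52.8% of all protein-coding genes. Of the members 8 had one over a start, with Lmna and Lmnb2 as the exceptions, beside 35.1% of all protein-coding genes. Here too, all protein-coding genes include genes that are not expressed, and expressed genes alone were not taken as a background. At Padi4 a peak of 425 bp lay over the start (fold 3.69) and others lay 4395 and 8448 bp upstream, inside the upstream H3K4me2 stretch. At Sun2 the peak over the start was 3980 bp long (fold 6.01), and at Lmnb1 the intronic H3K4me2 stretch held 3 ATAC peaks, 24395, 27694 and 29466 bp after the start.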

How the data were processed

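Cells were sorted from bone marrow, and RNA libraries were made with a stranded mRNA kit. Per the labels, the submitters' processing notes name Trimmomatic 0.36, BWA 0.7.17, MACS2 2.1.0 and kallisto 0.44.0 with mm10, whereas the paper's methods describe Tophat, HTSeq and DESeq. For RNA the authors deposited a TPM value of each gene in each library, and how TPM was made is not stated. They deposited peaks per sample, with a fold enrichment (a linear ratio) and a −log10 q-value of each peak. The H3K4me3 and GFI1 lists name chromosomes and scaffolds that GRCm38 lacks and were not used.

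TPM were analysed on log2(TPM + 1) with limma 3.58.1 (R 4.3.3), with a variance trend, 1 fit over 9 libraries and cell type as the only term. The script was tested on simulated data. Peaks were joined to GENCODE M21 and sequences taken from RefSeq GRCm38.p6 with Python. The members and lists were chosen with earlier results of these data known. Named beside the members are, from each list that holds no cell type markers, the gene with the highest mean TPM and the called gene with the largest log2 change each way in matNeu against GMP, the 3 genes most correlated with each member, and Cd34, Ngp, Cxcr2 and Mki67. Csf1r, Cd3e, Cd3d, Trbc2, Hbb-bt, Hba-a1, Klf1, Epx and Syne2 were named after their values were seen. Nup58 was matched as Nupl1. A correlated gene of Sun2 and the B cell markers are not reported here. Other pseudocounts, filters, scalings, fits, windows and q limits were tried.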

Additional observations from a re-analysis of the deposited data

How the results depend on the processing

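Of 486 alternatives for the 27 log2 changes of the members, 439 kept the direction and the side of the threshold, and 12 of the 20 called changes did so throughout. Median-of-ratios factors gave 3027 genes higher and 3679 lower in preNeu against GMP and 4498 higher in matNeu against GMP, and quantile normalization gave 3299, 3559 and 4991. Called members lower in preNeu against GMP were 0 and 1 under these scalings, and with median-of-ratios factors 3 members were higher in matNeu against preNeu and 3 lower in matNeu against GMP. In the same order of scalings, Sun1 in preNeu against GMP came to 0.41 and 0.45 and Emd in matNeu against preNeu to 0.35 and 0.26, and in matNeu against GMP Emd came to 0.35 and 0.22. With median-of-ratios factors Emd in preNeu against GMP was 0.0021 and Lbr in matNeu against preNeu 0.35. The cause was not tested. A log2 change of at least 1 left 1276 genes higher and, of the members, 2 higher and 0 lower in preNeu against GMP, and 2 higher in matNeu against GMP. Fitting the compared cell types alone gave 2 members higher in matNeu against preNeu.

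Leaving out 1 library moved preNeu against GMP for Lmnb1 from −0.068 to 0.73, for Lmnb2 from −0.067 to 0.075 and for Sun1 from −0.23 to 0.039, and matNeu against preNeu for Lbr from −0.10 to 0.13 and for Emd from −0.051 to 0.047. It gave 1 to 2 members higher in matNeu against preNeu, with Lmnb1 called without GMP replicate 1.

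Same-numbered libraries correlated at −0.04 to 0.12 in their deviations from the cell type means, so the numbers were not taken as pairs. With the replicate number as a block, 2 members were higher in matNeu against preNeu, Lmnb1 (adjusted p = 0.0334) beside Padi4, Sun2 was called lower there (adjusted p = 0.0369), and Tmpo lost its call in preNeu against GMP (adjusted p = 0.0518).

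A window of 2 kb held 4 CHD4 peaks in WT GMPs and 23, 24 and 23 H3K4me2 peaks in GMP, preNeu and matNeu cells. A −log10 q of at least 5 left 8 H3K4me2 peaks over 28.9 kb and 5 covered starts in GMPs, and 25 peaks in preNeu cells. Read depth is unknown, and each peak list rests on 1 library.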
